A study of Danio rerio with 8 samples.

Results

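The genes described here are 10 marker genes of zebrafish neutrophils, named mpx, lyz, npsn, srgn, s1pr4, ncf1, cybb, csf3r, cxcr1 and cpa5 and chosen by symbol, among 32520 genes counted in adult ventricles. Of the 10 symbols, 8 matched 9 rows of the count table, cxcr1 with 2 of them, and mpx and cpa5 matched none. The study compared Pi-Fu, adult F1 offspring of fathers with a cardiac cryoinjury (a freeze wound of the heart) that were crossed 7 days after it, with Pu-Fu, adult F1 offspring of uninjured fathers. All mothers were uninjured, and the offspring were sampled under homeostatic conditions, with the atrium and bulbus arteriosus removed and a small cut made in the ventricle so that blood could drain. Each group had 4 libraries, numbered 1, 2, 4 and 7 for Pi-Fu and 1, 3, 4 and 5 for Pu-Fu, and each library pooled the ventricles of 4 siblings. Neither the strain nor the sex of the offspring is given in the sources used here. Nor is it stated that each pool had its own father, and the p-values may therefore reflect only how far the pools scattered. The comparison asks whether an injury of the father is accompanied by a different level of neutrophil transcripts in the ventricles of his offspring.

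Neutrophils are short-lived white blood cells that circulate in blood, crawl into wounded or infected tissue and kill microbes there. They carry granules filled with enzymes, a membrane oxidase that makes superoxide, and receptors that release them from the marrow and steer them. In the cryoinjured zebrafish heart they are among the first cells to arrive. In an uninjured ventricle they are rare, and part of their RNA comes with whatever blood stays in the chamber. Several of the markers are shared: srgn, ncf1, cybb and csf3r are also expressed by other myeloid cells, and cpa5 is used in zebrafish as a mast cell gene.

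Library totals lay between 8441014 and 16290169 counts in Pi-Fu and between 12450251 and 14736121 counts in Pu-Fu. As a check of the tissue label, the heart muscle gene myl7 was at 23538 to 33006 CPM in Pi-Fu and 26270 to 31466 CPM in Pu-Fu, and myh7 was at 44051 to 59047 CPM in Pi-Fu and 50653 to 70174 CPM in Pu-Fu. CPM are counts scaled to 1e6 per library, after correction of the library total by TMM. Of the 13604 genes tested with edgeR's quasi-likelihood test, 0 (0%) passed at an adjusted p under 0.05, and 971 had an unadjusted p under 0.05. DESeq2 called 55 of 15158 genes (0.363%) and limma voom 0 of 13604 (0%).

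Most neutrophil markers were detected at a low level in both groups and none passed the test after adjustment. Of the 9 rows matched by symbol, 6 passed the low-count filter. Of these 6, 5 had a positive log2 fold (Pi-Fu over Pu-Fu) and 1 a negative one, with a median of 0.36, where 48.6% of all tested genes were positive with a median of -0.01. The median of the 6 was 0.11 without Pi-Fu library 4, 0.20 without Pu-Fu library 4, 0.23 without Pu-Fu library 5 and 0.56 without Pu-Fu library 3. It was 0.07 by limma voom and -0.01 with the haemoglobin share of each library as a covariate, each with 3 of the 6 positive. That share was higher in every Pi-Fu library than in Pu-Fu libraries 1, 4 and 5. A fit with it, here and below, cannot tell group and blood apart. An unadjusted p under 0.05 was reached by 1 of the 6, s1pr4, and by 7.14% of all tested genes, 3.67% in the higher and 3.47% in the lower direction. It was also the 1 gene of the 6 whose groups did not overlap, with Pi-Fu above, which held for 2.6% of all tested genes. In pooled tissue, a difference in the number of neutrophils and one in the RNA per neutrophil cannot be told apart.

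**Figure D1:**
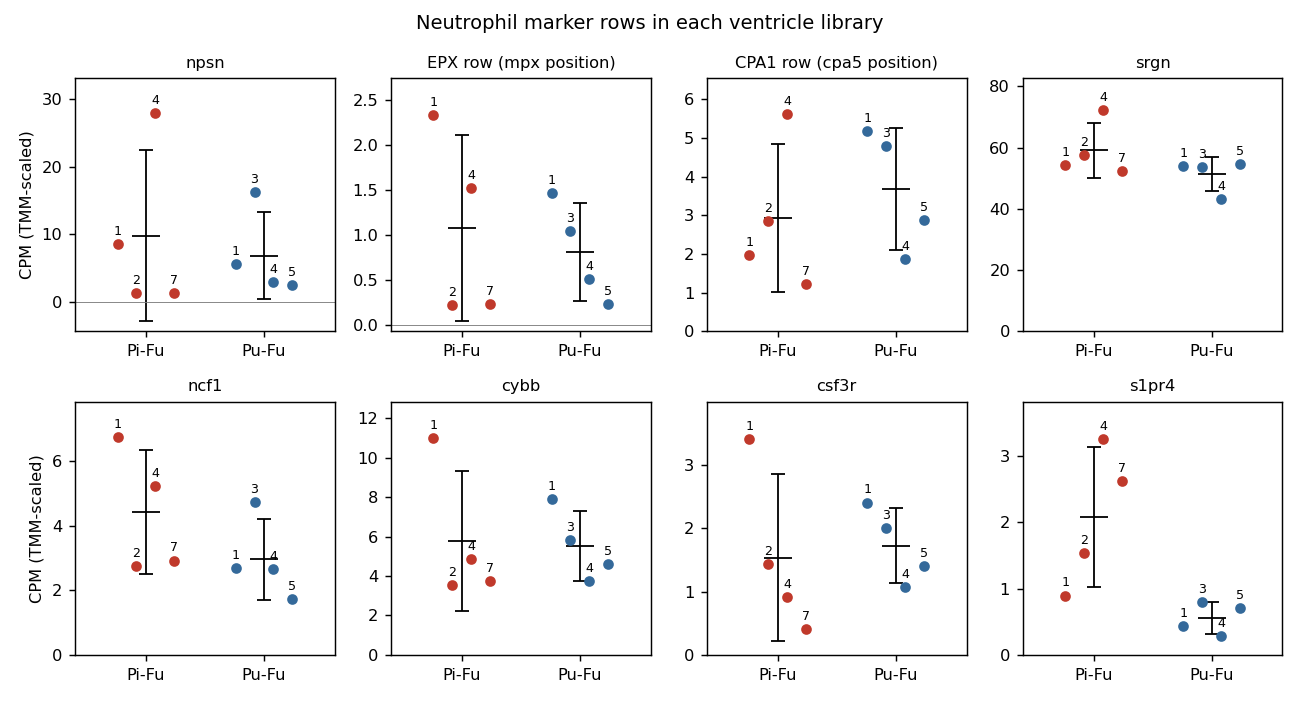
CPM of each tested marker row in the 4 Pi-Fu and 4 Pu-Fu libraries; points are libraries with their numbers, horizontal ticks are group means and bars are the SD. The groups overlapped in each panel except that of s1pr4, where Pi-Fu lay between 0.897 and 3.26 CPM and Pu-Fu between 0.288 and 0.800 CPM.

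The granule genes come first. The gene npsn (ENSDARG00000010423, GRCz11 chromosome 7, 38653481 to 38659477, minus strand) encodes nephrosin, a secreted metalloprotease of fish neutrophils. It had 96, 12, 369 and 21 counts in Pi-Fu libraries 1, 2, 4 and 7, against 76, 204, 41 and 32 counts in Pu-Fu libraries 1, 3, 4 and 5. On the CPM scale these were 8.61, 1.32, 28.0 and 1.23 in Pi-Fu and 5.55, 16.3, 2.96 and 2.5 in Pu-Fu. Pi-Fu held both the highest and the lowest library, and all 4 Pu-Fu libraries lay between them. The mean was 9.79 ± 12.6 CPM in Pi-Fu and 6.83 ± 6.47 CPM in Pu-Fu (SD, n = 4 each), with an edgeR log2 fold of 0.53 (SE 1.02) and an adjusted p of 0.92. Without Pi-Fu library 4 the log2 fold was -0.88, and without Pu-Fu library 3 it was 1.41.

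The highest library had 22.8 times the npsn level of the lowest. Counting error alone gave much narrower limits, with an exact Poisson 95% interval of 25.2 to 31.0 CPM in Pi-Fu library 4 and of 0.759 to 1.87 CPM in Pi-Fu library 7. The SD of log2 CPM within groups was 1.72 for npsn, larger than in 99.8% of the tested genes, whose median was 0.38. Haemoglobin transcripts, a sign of blood left in the ventricle, took 0.173%, 0.171%, 0.360% and 0.155% of the counts in Pi-Fu libraries 1, 2, 4 and 7, against 0.0900%, 0.171%, 0.101% and 0.0905% in Pu-Fu libraries 1, 3, 4 and 5. Reads that map to several places were left uncounted, so reads shared by similar haemoglobin genes may be missing from these shares. Pi-Fu library 4 was thus highest in both haemoglobin and npsn, while Pi-Fu library 2 had the haemoglobin share of Pu-Fu library 3 but the second lowest npsn level. When the haemoglobin share was added as a covariate, npsn had a log2 fold of -2.21 (unadjusted p 0.022, adjusted p 1.00 by edgeR). The share was higher in every Pi-Fu library than in Pu-Fu libraries 1, 4 and 5. This fit therefore cannot tell group and blood apart, and its fold is not a group difference freed of blood. The part of blood in these differences was not tested.

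The peroxidase gene mpx, whose product gives neutrophils the enzyme that turns peroxide into hypochlorous acid, had no row under its name. RefSeq places mpx on chromosome 10 between loxa and sftpba and gives it a span of 7085 bases on a later assembly. In the count table a row named EPX (ENSDARG00000019521, chromosome 10, 7778870 to 7785945) lies between rows named LOX and sftpba, with 1 other row on the LOX side, and spans 7076 bases. That row is given here under its own name, EPX, since the match rests on neighbours and not on an identifier. It had 26, 2, 20 and 4 counts in Pi-Fu libraries 1, 2, 4 and 7, against 20, 13, 7 and 3 counts in Pu-Fu libraries 1, 3, 4 and 5. The 4 highest of its 8 libraries by CPM were Pi-Fu 1, Pi-Fu 4, Pu-Fu 1 and Pu-Fu 3, the same 4 as for npsn. The mean was 1.08 ± 1.04 CPM in Pi-Fu and 0.810 ± 0.548 CPM in Pu-Fu (SD, n = 4 each), with a log2 fold of 0.39 (SE 0.75) and an edgeR adjusted p of 0.92. Its log2 fold was -0.28 without Pi-Fu library 1.

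Lysozyme, the granule enzyme that cleaves bacterial cell walls, is encoded by lyz (ENSDARG00000057789, chromosome 24, 24035863 to 24038800, minus strand). Its row was listed at 0 counts in all 8 libraries. The annotation of GRCz11 used for counting gives lyz 603 exonic bases in 4 exons, of which 414 (68.7%) lie inside an exon of abcc13 on the same strand. Reads that overlap more than 1 gene were left uncounted, so that only the last exon of lyz, of 189 bases, could add to its row. That exon also gave 0 counts, and abcc13 itself had 0 to 8 counts per Pi-Fu library and 0 to 4 per Pu-Fu library. The row thus leaves most of the lyz transcript uncounted, and its 0 does not show that the transcript was absent.

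**Figure D2:**
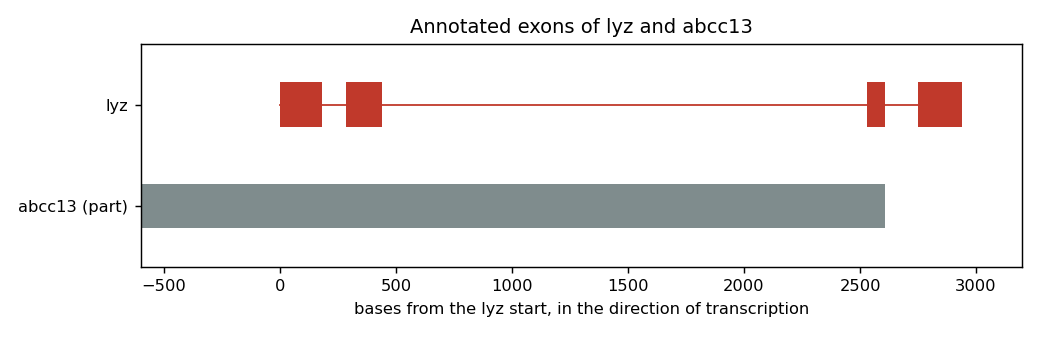
Annotated exons (boxes) of lyz and of the part of abcc13 that reaches it, in bases from the start of lyz in the direction of transcription. The first 3 exons of lyz, 414 of its 603 exonic bases, lie inside an abcc13 exon; the last exon, of 189 bases, is free of it.

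The carboxypeptidase gene cpa5 also had no row under its name. RefSeq places it on chromosome 25 between cpa1 and tes with a span of 10627 bases, and the row between CPA1 and TES in the count table is a second row named CPA1 (ENSDARG00000021339, 18459924 to 18470695), spanning 10772 bases. That row had 22, 26, 74 and 21 counts in Pi-Fu libraries 1, 2, 4 and 7, against 71, 60, 26 and 37 counts in Pu-Fu libraries 1, 3, 4 and 5. Library 4 of Pi-Fu was the highest and library 7 of Pi-Fu the lowest by CPM, and the groups overlapped. The mean was 2.92 ± 1.92 CPM in Pi-Fu and 3.69 ± 1.57 CPM in Pu-Fu (SD, n = 4 each), with a log2 fold of -0.34 (SE 0.47) and an edgeR adjusted p of 0.88. The log2 fold was -0.91 without Pi-Fu library 4, -0.07 without Pi-Fu library 7 and -1.43 with the haemoglobin share as a covariate (unadjusted p 0.031, adjusted p 1.00 by edgeR).

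Serglycin, the proteoglycan that packs enzymes into granules of blood cells, was the most abundant marker. Its gene srgn (ENSDARG00000077069, chromosome 13, 23070581 to 23074454) had 605, 523, 953 and 900 counts in Pi-Fu libraries 1, 2, 4 and 7, against 741, 670, 599 and 701 counts in Pu-Fu libraries 1, 3, 4 and 5. These were 54.3, 57.5, 72.3 and 52.5 CPM in Pi-Fu and 54.1, 53.6, 43.2 and 54.7 CPM in Pu-Fu. Apart from Pi-Fu library 4 above and Pu-Fu library 4 below, the libraries of both groups lay within a few CPM of each other. The mean was 59.1 ± 9.0 CPM in Pi-Fu and 51.4 ± 5.5 CPM in Pu-Fu (SD, n = 4 each), with a log2 fold of 0.20 (SE 0.17) and an edgeR adjusted p of 0.81. It was 0.09 without Pi-Fu library 4 and 0.13 without Pu-Fu library 4. Its within-group SD of 0.19 in log2 CPM was larger than in only 8.44% of the tested genes. The marker with the highest level was thus among the genes that varied least between pools, and npsn, EPX and csf3r among those that varied most. This ranking was not matched for level. Counting error adds more to the SD at low counts, such as 2 to 26 per library in EPX and 7 to 38 in csf3r.

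**Figure D3:**
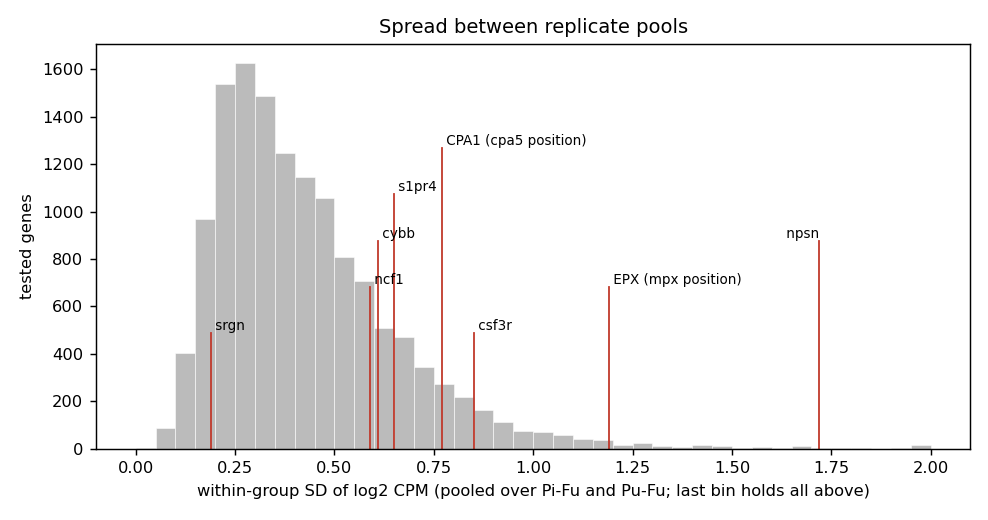
Number of tested genes by their within-group SD of log2 CPM (the last bin holds all larger values), with the 8 tested marker rows as red lines. The line of srgn stands at 0.19, left of the median of all genes at 0.38, and those of csf3r at 0.85, EPX at 1.19 and npsn at 1.72 stand in the right tail.

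Levels can be compared between genes only per length of the transcript. Per kilobase of annotated exon, srgn averaged 28.2 CPM over the 8 libraries, npsn 5.08, the CPA1 row 2.44, ncf1 1.72, cybb 1.32, s1pr4 0.744, csf3r 0.607 and the EPX row 0.251. The ranges over libraries of neighbours in this order overlapped, except that srgn, at 22 to 36.9 CPM per kilobase, lay above npsn, at 0.749 to 17.1 CPM per kilobase, in the range of all libraries.

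The phagocyte oxidase is a complex of a membrane part and cytosolic parts that assemble on it when the cell is triggered. The gene ncf1 encodes the cytosolic organiser p47phox (ENSDARG00000033735, chromosome 5, 61432541 to 61445697). It was at 6.73, 2.75, 5.23 and 2.92 CPM in Pi-Fu libraries 1, 2, 4 and 7, against 2.7, 4.72, 2.67 and 1.72 CPM in Pu-Fu libraries 1, 3, 4 and 5. Libraries 1 and 4 of Pi-Fu and library 3 of Pu-Fu stood above the other 5. The mean was 4.41 ± 1.92 CPM in Pi-Fu and 2.95 ± 1.26 CPM in Pu-Fu (SD, n = 4 each), with a log2 fold of 0.58 (SE 0.38) and an edgeR adjusted p of 0.75. Adding the haemoglobin share as a covariate gave a log2 fold of 0.00.

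The gene cybb encodes the catalytic subunit gp91phox, which passes electrons across the membrane (ENSDARG00000056615, chromosome 11, 29795155 to 29818866). Of its 4284 exonic bases, 478 are shared with XK, and reads there were not counted. It was at 11.0, 3.52, 4.85 and 3.74 CPM in Pi-Fu libraries 1, 2, 4 and 7, against 7.88, 5.84, 3.75 and 4.61 CPM in Pu-Fu libraries 1, 3, 4 and 5. Library 1 was the highest of its group in both Pi-Fu and Pu-Fu, and the other 6 libraries lay close together. The mean was 5.79 ± 3.55 CPM in Pi-Fu and 5.52 ± 1.79 CPM in Pu-Fu (SD, n = 4 each), with a log2 fold of 0.06 (SE 0.38) and an edgeR adjusted p of 0.98. Without Pi-Fu library 1 the log2 fold was -0.45.

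The other oxidase genes were described from a list of 7, of which 6 were tested, with 5 positive and 1 negative, a median log2 fold of 0.25 and 0 called. The voltage-gated proton channel gene hvcn1, which balances the charge the oxidase moves, was at 11.5 ± 3.31 CPM in Pi-Fu and 7.67 ± 2.1 CPM in Pu-Fu (SD, n = 4 each), with a log2 fold of 0.59 and an unadjusted p of 0.049. The GTPase gene rac2 had a log2 fold of 0.45 and cyba, of the membrane partner of cybb, 0.28, with edgeR adjusted p-values of 0.73 and 0.81.

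Receptors follow. Granulocyte colony-stimulating factor drives neutrophil production through csf3r (ENSDARG00000045959, chromosome 16, 3103182 to 3127749). This gene had 38, 13, 12 and 7 counts in Pi-Fu libraries 1, 2, 4 and 7, against 33, 25, 15 and 18 counts in Pu-Fu libraries 1, 3, 4 and 5. By CPM, Pi-Fu library 1 was the highest of all and Pi-Fu library 7 the lowest, at 3.41 and 0.409, and Pu-Fu lay between 1.08 and 2.41. The mean was 1.54 ± 1.31 CPM in Pi-Fu and 1.72 ± 0.594 CPM in Pu-Fu (SD, n = 4 each), with a log2 fold of -0.20 (SE 0.55) and an edgeR adjusted p of 0.95. It was -0.97 without Pi-Fu library 1 and 0.15 without Pi-Fu library 7.

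The chemokine receptor gene cxcr1, whose product senses cxcl8 and steers neutrophils to wounds, was barely detected. Both of its rows lie on chromosome 9. The first (48085039 to 48091741) had 3, 2, 2 and 0 counts in Pi-Fu libraries 1, 2, 4 and 7, against 0, 2, 2 and 1 counts in Pu-Fu libraries 1, 3, 4 and 5. The second (48108174 to 48109197) had 2 counts in Pi-Fu library 1 and 0 in the other 7. RefSeq places a single cxcr1 in this interval, followed by cxcr2. Neither row passed the filter, and a difference between groups was not detectable at this depth. A row at 0 counts allows up to 0.184 to 0.355 CPM in a Pi-Fu library and 0.204 to 0.241 CPM in a Pu-Fu library. These floors are 3 counts over the library total, without the TMM correction of the other CPM. The exact Poisson 95% interval at 0 counts reaches 3.69 counts.

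The sphingosine 1-phosphate receptor gene s1pr4 (ENSDARG00000074851, chromosome 22, 5320415 to 5323482) is expressed mainly by leukocytes in mammals, lymphocytes included. It had 10, 14, 43 and 45 counts in Pi-Fu libraries 1, 2, 4 and 7, against 6, 10, 4 and 9 counts in Pu-Fu libraries 1, 3, 4 and 5. These were 0.897, 1.54, 3.26 and 2.63 CPM in Pi-Fu and 0.438, 0.800, 0.288 and 0.703 CPM in Pu-Fu. Each Pi-Fu library lay above each Pu-Fu library, by a wide margin for libraries 4 and 7 and a narrow one for library 1. The nearest libraries of the 2 groups, Pi-Fu 1 and Pu-Fu 3, each held 10 counts, with exact Poisson 95% intervals of 0.430 to 1.65 CPM and of 0.384 to 1.47 CPM. The mean was 2.08 ± 1.06 CPM in Pi-Fu and 0.557 ± 0.236 CPM in Pu-Fu (SD, n = 4 each). The log2 fold was 1.91 (SE 0.48) with an unadjusted p of 0.0019 and an adjusted p of 0.43 by edgeR. DESeq2 gave an adjusted p of 0.09 and limma voom 0.60, so no method passed it at 0.05. When the haemoglobin share was added as a covariate, s1pr4 had a log2 fold of 1.28 with an unadjusted p of 0.063 and an edgeR adjusted p of 1.00.

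The order of libraries in s1pr4 differed from that of some other markers, mainly in Pi-Fu library 7. Pi-Fu library 7 was the second highest in s1pr4 and the lowest of the 8 in npsn, csf3r and the CPA1 row. It held rank 4 of the 8 in ncf1. Pi-Fu library 4 was the highest in s1pr4, npsn, srgn and the CPA1 row, and Pu-Fu library 4 was the lowest in both s1pr4 and srgn. Markers of T and NK cells, which can also carry this receptor, were low: 12 of 12 listed genes had 1 row each, 3 were tested and none was at 0 over all libraries. Their summed level was 11.4, 7.36, 13.9 and 14.7 CPM in Pi-Fu libraries 1, 2, 4 and 7, against 7.44, 11.6, 5.70 and 7.11 CPM in Pu-Fu libraries 1, 3, 4 and 5. Libraries 4 and 7 of Pi-Fu were the highest in both s1pr4 and this sum, but the sums of the groups overlapped. Part of the sum was the untested gene runx3, at 3.21 CPM in Pi-Fu library 7 and at most 0.91 CPM in any other library. The sum averaged 11.8 ± 3.28 CPM in Pi-Fu and 7.96 ± 2.54 CPM in Pu-Fu (SD, n = 4 each). The 3 tested genes, ccl36.1, il2rb and gata3, had log2 folds of 0.78, 0.68 and -0.18, with edgeR adjusted p-values of 0.70, 0.77 and 0.93. The T cell genes lck, zap70 and cd247l did not pass the filter. They averaged 0.102, 0.433 and 0.0937 CPM in Pi-Fu, against 0.134, 0.452 and 0.114 CPM in Pu-Fu. Of the other untested genes, cd4-1, cd8a, tcf7, nkl.2 and runx3 averaged higher in Pi-Fu and il7r lower. Pi-Fu libraries 4 and 7 were also the highest in the summed macrophage genes, at 376, 395, 502 and 617 CPM in Pi-Fu libraries 1, 2, 4 and 7, against 317, 414, 307 and 384 CPM in Pu-Fu libraries 1, 3, 4 and 5. Much of this sum was cd74a, cd74b and slc40a1. In Pi-Fu libraries 4 and 7, cd74a was at 207 and 306 CPM and cd74b at 90.9 and 145 CPM. The gene slc40a1 was at 133 CPM in Pi-Fu library 4 but at 62.0 CPM in Pi-Fu library 7, the lowest of Pi-Fu. Single macrophage genes differed. Those highest in Pi-Fu libraries 4 and 7 were marco, lgals9l1, havcr1, ctss2.1, ctss2.2, cd74a and cd74b, and csf1rb alone was lowest in them. The other listed macrophage genes did neither. The log2 folds of lgals9l1, marco and csf1rb were 1.53, 0.80 and -1.18, with edgeR adjusted p-values of 0.31, 0.52 and 0.64. The part of T, NK or macrophage cells in the s1pr4 difference was not tested.

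Other genes of the same pathway were described from a list of 9 with a row each, of which 5 were tested, with 4 positive and 1 negative, and 0 called. The receptor gene s1pr2, expressed in heart and vessels, was at 24 ± 5.91 CPM in Pi-Fu and 34.2 ± 4.65 CPM in Pu-Fu (SD, n = 4 each), a log2 fold of -0.51 with an unadjusted p of 0.029 and an edgeR adjusted p of 0.64. Its groups did not overlap, with Pi-Fu below, which held for 1.58% of all tested genes. The S1P kinase gene sphk2 had a log2 fold of 0.35 and the lyase gene sgpl1 0.11, with adjusted p-values of 0.79 and 0.89. The kinase gene sphk1 was at 0 counts in all libraries.

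**Figure D4:**
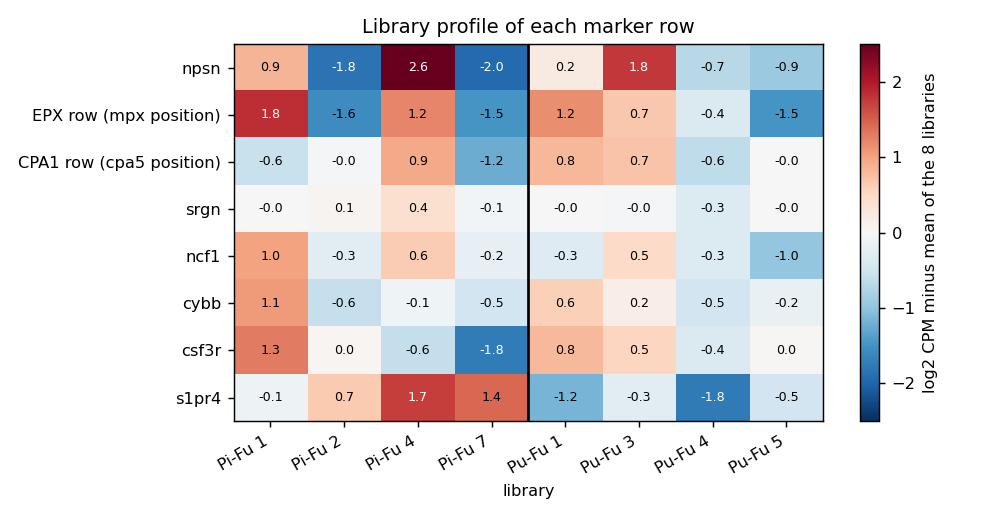
Log2 CPM of the 8 tested marker rows in each library, minus the mean of the row over the 8 libraries; red is above and blue below the mean, with Pi-Fu left of the black line and Pu-Fu right of it. Pi-Fu libraries 1 and 4 and Pu-Fu libraries 1 and 3 are high in npsn and EPX. Only in s1pr4 does each Pi-Fu library lie above each Pu-Fu library, and there Pi-Fu library 1 is slightly below the row mean.

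Across the 8 tested rows, EPX and CPA1 included, some libraries of either group were often among the highest. Pi-Fu libraries 1 and 4 were each among the highest 4 libraries in 7 of the 8 rows, Pu-Fu library 3 in 6 and Pu-Fu library 1 in 5. Pi-Fu libraries 2 and 7 were among them in 3 and 2 rows, Pu-Fu library 5 in 2 and Pu-Fu library 4 in 0. Each of the 8 rows was highest in Pi-Fu library 1 or Pi-Fu library 4, with 4 rows each. The rows share libraries, so these counts are not independent of each other. The summed CPM of the matched rows was 85.4, 68.2, 115 and 63.4 in Pi-Fu libraries 1, 2, 4 and 7, against 73.1, 83.5, 54.1 and 65.7 in Pu-Fu libraries 1, 3, 4 and 5. Without srgn the sums were 31.1, 10.8, 42.4 and 10.9 CPM in Pi-Fu and 19.0, 29.8, 10.9 and 11.0 CPM in Pu-Fu. Both groups thus held libraries near 11 CPM and libraries near or above 30 CPM, and their means, 23.8 ± 15.7 CPM in Pi-Fu and 17.7 ± 8.95 CPM in Pu-Fu (SD, n = 4 each), differed by less than the spread between pools. With srgn the difference of the means was 13.9 CPM, and 3.27 CPM without Pi-Fu library 4.

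The genes whose library profile was most like that of a marker were found by the root mean square (RMS) difference of centred log2 CPM over the 8 libraries, among 10048 named genes whose mean log2 CPM was 1 or more. For npsn, whose own RMS deviation from its mean was 1.49, the nearest gene was a row named LECT2 (ENSDARG00000033227; leukocyte cell-derived chemotaxin family) at an RMS difference of 0.36. It was at 4.67, 0.439, 10.8 and 0.642 CPM in Pi-Fu libraries 1, 2, 4 and 7, against 1.82, 4, 1.01 and 1.09 CPM in Pu-Fu libraries 1, 3, 4 and 5. It shared with npsn the highest library, Pi-Fu 4, and low values in Pi-Fu 2 and 7. Next came SELE (ENSDARG00000042138) at 0.80 and the haemoglobin gene hbaa2 at 0.84; the EPX row stood at 0.86. For the EPX row, with an own RMS deviation of 1.03, the nearest were cfbl at 0.50, STEAP4 at 0.51 and NKAIN1 at 0.53. Nearness over 8 libraries among so many genes is a description and carries no test.

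Further genes used as neutrophil markers in zebrafish were described from a list of 23, of which 15 had 1 row and 10 were tested. Of these 10, 8 were positive and 2 negative, with a median log2 fold of 0.29 and 0 called. The list is not limited to genes particular to neutrophils. Its tested gene s100a10b averaged 305 CPM in Pi-Fu and 282 CPM in Pu-Fu, above every marker row. The count of positive genes is therefore not one of neutrophil transcripts alone. The cytokine receptor gene il6r was at 3.84 ± 0.674 CPM in Pi-Fu and 2.26 ± 0.385 CPM in Pu-Fu (SD, n = 4 each), a log2 fold of 0.76 with an unadjusted p of 0.013 and an edgeR adjusted p of 0.58. Its groups did not overlap, with Pi-Fu above, which held for 2.6% of all tested genes. The gelatinase gene mmp9, also made by macrophages, was at 5.65, 2.09, 2.65 and 0.700 CPM in Pi-Fu libraries 1, 2, 4 and 7, and between 0.880 and 1.23 CPM in Pu-Fu. Pi-Fu library 7 lay below all of Pu-Fu and the other 3 above. Its log2 fold was 1.45 (SE 0.53), with an unadjusted p of 0.018 and an adjusted p of 0.61 by edgeR. The protease gene adam8a had a log2 fold of 0.93 (unadjusted p 0.12). The low-count filter left out mmp13a, scpp8, illr4, alox5ap and tgm5l.

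Genes listed as signals that call neutrophils had log2 folds in both directions. Of the 11 with 1 row, 6 were tested, with 2 positive and 4 negative, a median log2 fold of -0.08 and 0 called. The list is not limited to genes that attract neutrophils, so these counts are not those of attractants alone. The ligand gene of csf3r that was tested, csf3a, had a log2 fold of -0.12 and csf3b had 1 count in all. Of the cxcl8 genes, cxcl8b.3 had a log2 fold of -0.39 (adjusted p 0.83 by edgeR), and cxcl8a and cxcl8b.1 did not pass the filter. These untested genes averaged 0.25 and 0.168 CPM in Pi-Fu, against 0.0195 and 0.167 CPM in Pu-Fu, and their groups overlapped. Both positive genes had groups that did not overlap, with Pi-Fu above, which held for 2.6% of all tested genes. Both also had an unadjusted p under 0.05, reached in the higher direction by 3.67% of all tested genes, and none of the 4 negative genes did. The chemokine gene cxcl18b was at 30.1 ± 7.32 CPM in Pi-Fu and 10.3 ± 2.89 CPM in Pu-Fu (SD, n = 4 each). Its log2 fold was 1.55 (SE 0.25), with an unadjusted p of 4.5e-05 and an adjusted p of 0.31 by edgeR. The tumour necrosis factor gene tnfb was at 1.25 ± 0.386 CPM in Pi-Fu and 0.594 ± 0.234 CPM in Pu-Fu (SD, n = 4 each). Its log2 fold was 1.07, with an unadjusted p of 0.024 and an adjusted p of 0.63 by edgeR. The chemokine gene cxcl12b had a log2 fold of -0.48 (adjusted p 0.80).

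Genes listed as transcription factors of granulocyte development were likewise mixed, with 8 of 11 genes tested, 5 positive and 3 negative, a median of 0.09 and 0 called. The list is not limited to factors particular to granulocytes. The gene cebpb was at 22.2 ± 10.9 CPM in Pi-Fu and 12.6 ± 4.27 CPM in Pu-Fu (SD, n = 4 each), with an unadjusted p of 0.043 and an edgeR adjusted p of 0.69. The log2 fold of runx1 was -1.73 (SE 0.80), with 4.47 CPM in Pu-Fu library 4 and at most 1.08 CPM in the other 7 libraries. The log2 fold of lmo2 was 0.52 (adjusted p 0.71).

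Genes shared by many leukocytes had a median log2 fold of 0.34, with 9 of 10 tested genes positive and 0 at an unadjusted p under 0.05. Macrophage genes had a median of 0.39, with 13 of 16 positive; 2 had an unadjusted p under 0.05 in the higher direction and 1 in the lower, and 0 were called. Red blood cell genes had a median of 0.85, with 9 of 9 positive and 5 of the 9 below an unadjusted p of 0.05, and thrombocyte genes a median of 0.26 with 5 of 5 positive. Of all tested genes, 3.67% had an unadjusted edgeR p under 0.05 in the higher and 3.47% in the lower direction. The groups did not overlap, with Pi-Fu above, in 3 of the 9 red blood cell genes and 2 of the 16 macrophage genes. Such a gap was seen in 2.6% of all tested genes. The median of the neutrophil markers, 0.36, was close to those of the leukocyte and macrophage genes, and no test sets them apart. The summed levels of these lists overlapped between groups: macrophage genes at 376 to 617 CPM in Pi-Fu and 307 to 414 CPM in Pu-Fu, leukocyte genes at 106 to 162 CPM in Pi-Fu and 93.7 to 130 CPM in Pu-Fu, and red blood cell genes at 590 to 1846 CPM in Pi-Fu and 412 to 744 CPM in Pu-Fu. No gene of the leukocyte, macrophage or thrombocyte lists was at 0 in all libraries, and of the red blood cell genes hbae5 was. Mast cell and eosinophil genes, of which 3 of 5 with a row were tested and 2 were positive, summed to 12.4 to 31.9 CPM in Pi-Fu and 7.88 to 16.6 CPM in Pu-Fu. Most of that sum was il13ra1, at 28.4 of the 31.9 CPM in Pi-Fu library 4. Its log2 fold was 0.96, with an unadjusted p of 0.012 and an adjusted p of 0.58 by edgeR, and its groups overlapped. Of 7 B cell genes with a row, 2 were tested, blnk and cd22, with log2 folds of -0.03 and 0.55 and edgeR adjusted p-values of 0.99 and 0.81. The B cell genes summed to 2.16 to 4.85 CPM in Pi-Fu and 2.24 to 3.59 CPM in Pu-Fu. The genes cd79a, cd79b and pax5 of this list did not pass the filter. The part of these cell types in the marker values was not tested.

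**Figure D5:**
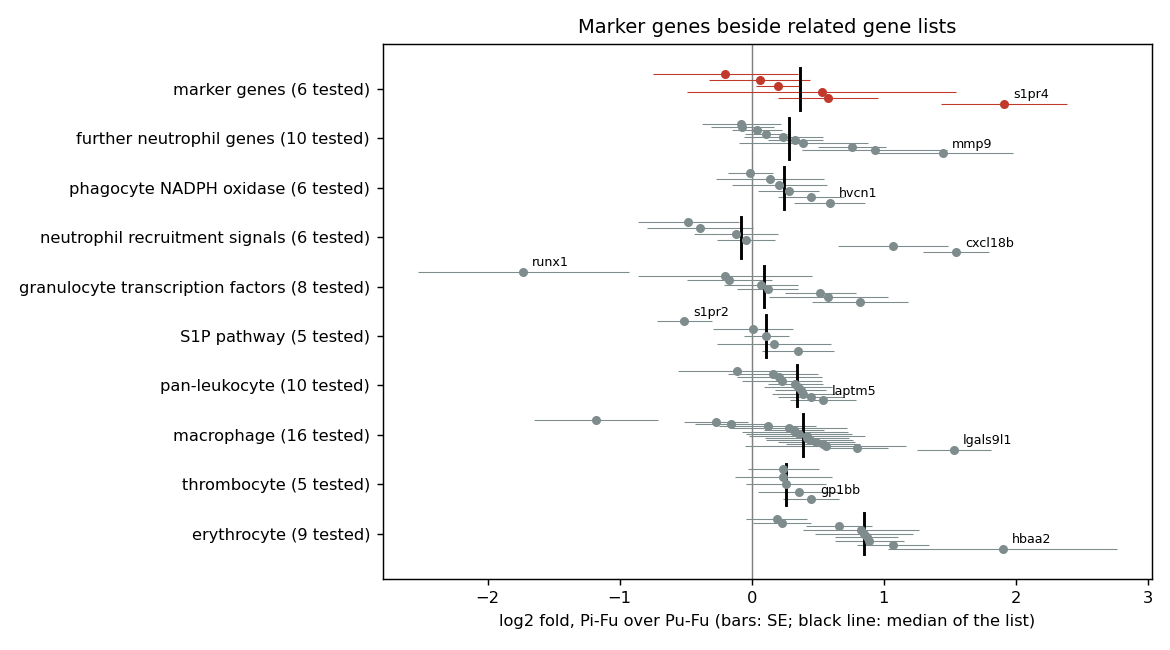
Log2 fold (Pi-Fu over Pu-Fu) of the 6 tested marker genes in red and of the tested genes of 9 related lists in grey, with the SE as bars and the median of each list as a black line. The medians run between -0.08 for recruitment signals and 0.85 for red blood cell genes, and s1pr4 at 1.91 is the farthest of the markers from 0.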

How the data were processed

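RNA from pooled adult ventricles was sequenced as single reads of 60 bases from libraries made of 1 ng RNA with 2 rounds of amplification, per the labels' protocols, with atrium and bulbus removed and blood drained beforehand. The authors deposited unnormalised read counts for each gene, made with featureCounts 2.0.3 on GRCz11, Ensembl release 111, with strand option 0 and no option to count multi-mapping or multi-gene reads, per the file headers. STAR 2.7.10a aligned them, per the submitters' processing notes. Reads were counted without strand or molecular identifiers, so intervals and floors cover counting error only.

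Symbols came from a name table (29201 rows, 89.8%), and neighbours from RefSeq's GRCz12tu gene table. Groups were compared with edgeR 4.0.16 (R 4.3.3): TMM factors, filterByExpr with a minimum count of 10, robust quasi-likelihood test, Benjamini-Hochberg adjustment over 13604 genes at 0.05. The SE of a log2 fold is its size divided by the root of F. Log2 CPM profiles and SD used a prior count of 2. DESeq2 1.42.0 and limma voom 3.58.1 were alternatives. The code was tested on simulated data.

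The markers and gene lists were chosen with earlier results of these data known. List symbols with several rows or none were left out. All markers are named; of every other list, the 3 tested genes with the smallest p could be named, and for npsn and the EPX row the 3 nearest profiles. Genes outside this rule (csf3a, csf3b, cxcl8b.3, lck, zap70, cd247l, cd74a, cd74b, slc40a1, havcr1, ctss2.1, ctss2.2, s100a10b and genes named as not tested) were named after their values were seen.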

Additional observations from a re-analysis of the deposited data

Results flagged for a closer look

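In the Pu-Fu group, library 4 stood apart from the other 3 in srgn, at 43.2 CPM against 53.6 to 54.7 CPM; its gap to the nearest library was 0.903 of the range of the group, above the limit for 4 values. With 2 groups examined for each marker, chance flags about 1 in 20 of them. Its cause was not tested. Without this library the srgn log2 fold was 0.13, and without Pi-Fu library 4 it was 0.09, against 0.20 with all libraries.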

How the results depend on the processing

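The alternatives were other normalisations (RLE, upper-quartile, library sizes alone), filters, tools, left-out libraries, a replicate block and the haemoglobin share as a covariate. The last cannot tell group and blood apart, since the share was higher in every Pi-Fu library than in most Pu-Fu libraries. The median log2 fold of the tested markers, 0.36, lay between 0.34 and 0.41 over the normalisations and between 0.11 and 0.56 over left-out libraries. It was 0.51 with no filter, 0.37 with the stricter one, 0.53 with DESeq2, 0.07 with limma voom, 0.79 with the block and -0.01 with the haemoglobin share. The 0.51 and 0.53 were medians over 8 rows, with both cxcr1 rows, of 12 and 2 counts in all, added. Their log2 folds were 0.58 and 2.39 with no filter, and 0.67 and 1.70 with DESeq2. The 0.37 was over 4 genes, without s1pr4 and csf3r. These medians therefore cover other genes than the 0.36 does. The difference in summed CPM, 13.9, was recomputed with library sizes alone (16.5), without srgn (6.12) and with left-out libraries (3.27 to 20.4). The number of genes called was 0 with edgeR, 55 with DESeq2 and 19 with the replicate block, which could be fitted only over libraries 1 and 4, whose deviations from the group means correlated at 0.115 and -0.281; the numbers are not stated to pair pools, and no marker was called in it. In that fit the log2 fold was 1.94 for npsn (unadjusted p 0.00094, adjusted p 0.21 by edgeR), 1.15 for ncf1, 0.17 for csf3r and 0.11 for CPA1. It left out Pi-Fu libraries 2 and 7, the lowest in npsn, and Pu-Fu library 3, the highest of Pu-Fu. The effect of the block cannot be told apart from that choice of libraries, and so few libraries leave little to estimate their scatter. The count of positive markers was 5 of 6, but 3 with limma voom and 3 with the haemoglobin share. It was 4 to 6 of 6 over left-out libraries, 6 of 6 with the block, 4 of 4 with the stricter filter, and 7 of 8 with no filter and with DESeq2. The 4 of 4 follows from the stricter filter, which left out csf3r, the only negative of the 6, along with s1pr4. The 7 of 8 adds the cxcr1 rows, both positive at very low counts. The direction reversed with limma voom for npsn (-0.17), cybb (-0.05) and EPX (-0.00), and with the haemoglobin share for npsn (-2.21), srgn (-0.02) and EPX (-0.27). Left-out libraries gave log2 folds of -0.88 to 1.41 for npsn, -0.45 to 0.29 for cybb, -0.97 to 0.15 for csf3r, -0.28 to 0.84 for EPX, 0.09 to 0.25 for srgn and -0.91 to -0.07 for CPA1, changing sign without Pi-Fu 1 (cybb -0.45, EPX -0.28), Pi-Fu 4 (npsn -0.88), Pi-Fu 7 (csf3r 0.15), Pu-Fu 1 (csf3r 0.01), Pu-Fu 4 (cybb -0.09) and Pu-Fu 5 (cybb -0.02). The gene s1pr4 kept its direction in each of 16 alternatives, at 1.28 to 2.28 (1.28, unadjusted p 0.063, with the haemoglobin share), with adjusted p-values of 0.09 to 1.00; the stricter filter left it out. The cause of these changes was not tested. Counts of 2 to 45 in EPX, csf3r and s1pr4 limit their precision.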
